A study of Caenorhabditis elegans with 4 samples.

Results

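The genes described here are named as neuropeptide and insulin-like peptide genes of the nematode Caenorhabditis elegans. They were taken by name from the count tables as every gene called flp, nlp or ins with a number. The 11 genes nlp-24 to nlp-34, known for antimicrobial peptides of the skin, were left out. That gave 135 genes out of 46904 rows: 31 flp genes, 65 nlp genes and 39 ins genes. RNA came from whole wild-type hermaphrodites of the strain Bristol N2, about 200 worms in each group. The 2 libraries labelled OP50 + MH-1 came from worms given a lactic acid bacterium, Lactiplantibacillus sp. MH-1, together with OP50. The 2 libraries labelled OP50 came from worms given only OP50, the Escherichia coli strain that is the usual laboratory food. The labels disagree on the timing: one text has worms 4 days old fed for 1 day, another has worms 1 day old kept for 2 days on the food. They also disagree on whether MH-1 was given alone or with OP50. The comparison asks which peptide genes differ with the food.

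The flp genes encode FMRFamide-like peptides, which end in an amidated arginine and phenylalanine. The nlp genes encode a mixed group of other neuropeptides, and the ins genes encode relatives of insulin. All are made as larger precursors, and most are released from dense core vesicles. Precursors of flp peptides and of many nlp peptides are cut by proprotein convertases and finished by exopeptidases and amidating enzymes. Neuropeptides act mainly on G protein-coupled receptors. In worms the insulin-like peptides act on a single insulin receptor, DAF-2, some as agonists and some as antagonists, and so bear on growth, dauer entry, fat and lifespan. Gene ontology terms in the deposited tables gave 61 of the 65 nlp genes and 22 of the 31 flp genes the term neuropeptide signaling pathway, and 26 of the 39 ins genes the term hormone activity.

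Every direction below rests on the sample titles. Each of the 4 deposited tables heads its counts with the food opposite to that in the sample's title. If those headings are right, each higher value becomes a lower one with the same size and the same p-value. Library totals were 15771890 and 21572225 counts for OP50 + MH-1, and 18485858 and 17593775 counts for OP50. The 135 genes held 17878 and 22239 of those counts in the OP50 + MH-1 libraries, which is 0.113% and 0.103%, and 17040 and 16776 in the OP50 libraries, which is 0.0922% and 0.0954%. Markers of neurons, intestine, muscle, epidermis and germline were all read in these whole-worm libraries. The labels do not state whether the 2 libraries of a food are separate cultures, so the spread behind each p-value may be purely technical.

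A few peptide genes supplied most of the peptide RNA. Levels between genes are compared as CPM, the reads of a gene scaled to the size of its library, per kilobase of exon (CPM per kb). nlp-77 was the highest, at 495 and 443 CPM per kb in the OP50 + MH-1 libraries, against 389.6 and 341 in the OP50 libraries. Averaged over the 4 libraries it ranked 245 among the 12640 genes with enough counts to be tested. nlp-40, whose peptide is released by the intestine and times defecation, followed at 216 and 218 CPM per kb in OP50 + MH-1, against 202 and 213 in OP50. flp-6, a peptide gene of sensory neurons, stood at 158 and 150.1 CPM per kb in OP50 + MH-1, against 124 and 109 in OP50. These 3 genes together took 52.0% of the summed CPM of all 135. After them came flp-14 with a mean of 103.5 CPM per kb, flp-1 with 57.9, flp-28 with 44.4, nlp-36 with 35.7 and flp-22 with 21.1. Next in order were flp-3, with a mean of 17.95 CPM per kb, and nlp-20, with a mean of 16.8. These neighbours differed by less than the spread of nlp-20, which stood at 18.8 and 16.5 CPM per kb in OP50 + MH-1, against 19.8 and 12.02 in OP50.

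**Figure D1:**
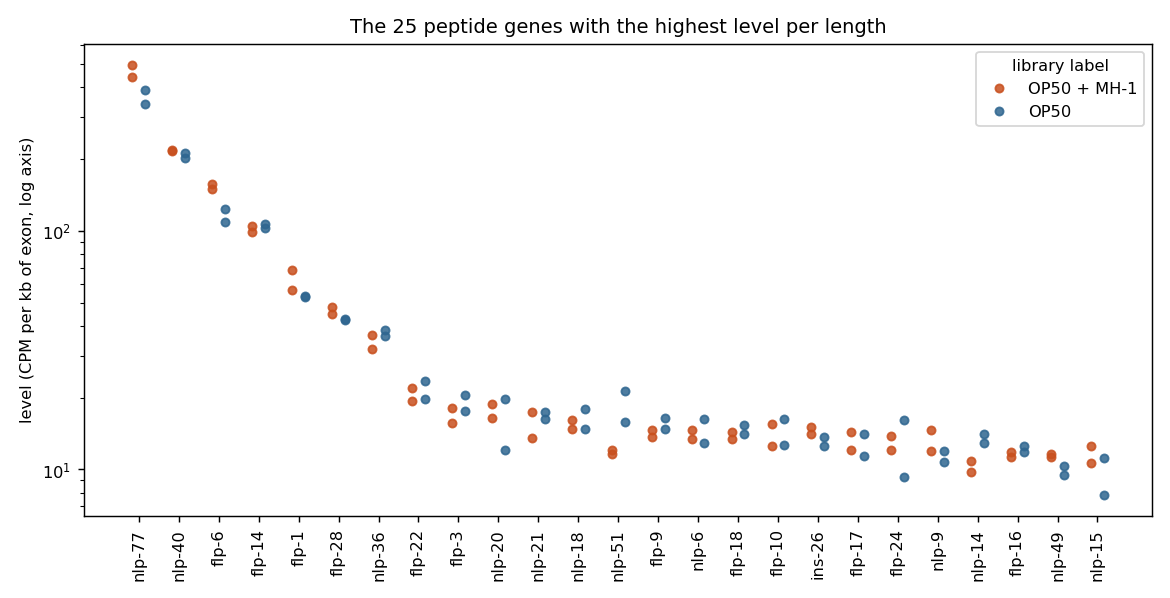
Level in CPM per kb of exon (log axis) of the 25 peptide genes with the highest mean, one point per library, OP50 + MH-1 left of OP50 for each gene. The libraries of nlp-77, nlp-40, flp-6, flp-14, flp-1, flp-28 and nlp-36 do not overlap those of the next gene in order. From flp-22 on, each gene's libraries overlap those of the next gene.

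The families differed in level. The median gene stood at 6.35 CPM per kb for flp, 2.94 for nlp and 0.411 for ins. Of the 31 flp genes, 12 reached 10 CPM per kb, as did 12 of the 65 nlp genes and 1 of the 39 ins genes, ins-26. Fewer than 1 CPM per kb was found for 1 flp, 18 nlp and 24 ins genes. In whole animals, fewer cells of a type and less RNA per cell cannot be told apart.

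No peptide gene passed the test between the foods. Of the 135 genes, 91 had enough counts to be tested: 29 flp, 48 nlp and 14 ins. Of these 0 were called at an adjusted p under 0.05 (edgeR quasi-likelihood test, Benjamini-Hochberg over all 12640 tested genes), where 2.15% of all tested genes were called, 1.82% higher and 0.332% lower. DESeq2 also called 0 of them, where it called 3.60% of all genes, and limma-voom called 0, where it called 1.28%. At an unadjusted p under 0.05 there were 6 of 91 (6.59%), against 14.1% of all tested genes. They were flp-6, nlp-77, ins-2 and nlp-57 with positive changes, and nlp-51 and nlp-14 with negative ones. The log2 fold changes of OP50 + MH-1 over OP50 ran from -1.29 to 1.40 with a median of 0.05, beside a median of 0.00 over all tested genes. There were 49 positive and 42 negative values. Both OP50 + MH-1 libraries lay above both OP50 libraries for 29 genes and below both for 17, together 50.5% of the 91, where 46.0% of all tested genes were separated in this way. The median gap between the group means was 0.22 on the log2 scale. The median gap between replicates was 0.20 in OP50 + MH-1 and 0.19 in OP50. Over all tested genes these medians were 0.152 between group means, 0.170 in OP50 + MH-1 and 0.145 in OP50. Means of 2 libraries vary less than single libraries, so the gaps here and below are not like measures.

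**Figure D2:**
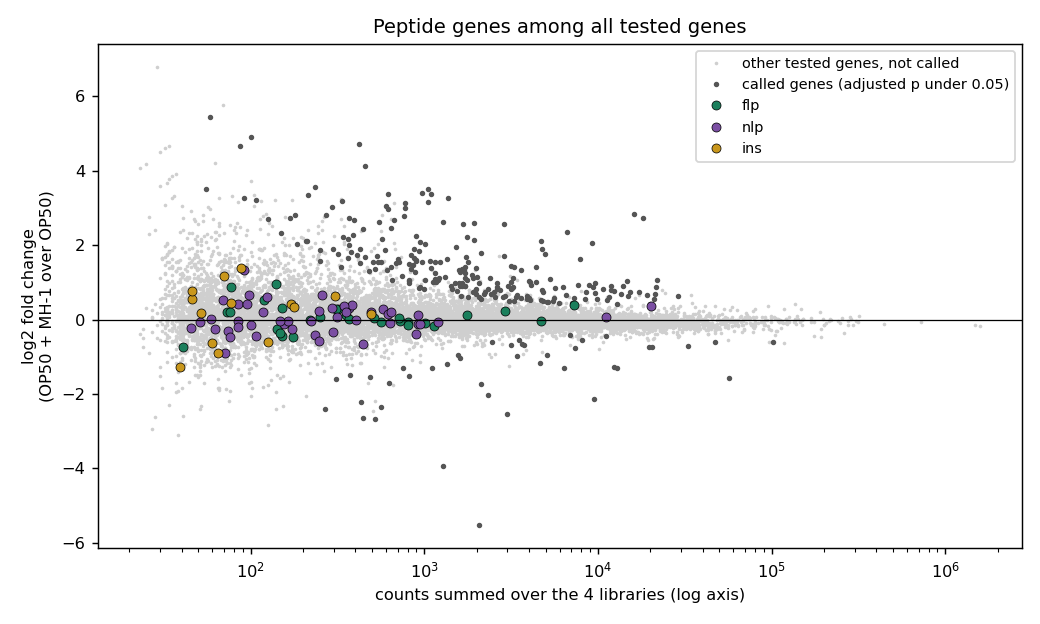
Log2 fold change of OP50 + MH-1 over OP50 (vertical axis) against the counts summed over the 4 libraries (horizontal log axis) for all 12640 tested genes, with the flp, nlp and ins genes in colour and the 272 called genes in dark grey. The 91 peptide genes lie between -1.29 and 1.40, and none is among the called genes.

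How closely a change was bounded depended on depth. Of the 27 tested peptide genes with at least 400 counts over the 4 libraries, 26 had a 95% interval of the fold change that stayed within 2-fold in either direction. Of the 37 with 100 to 400 counts, 18 did, and of the 27 with fewer than 100 counts, 0 did. Standard errors of the log2 fold change had a median of 0.18 in the deepest of these groups and 0.53 in the shallowest. In all, 44 of 91 intervals (48.4%) stayed within 2-fold, where 65.3% of all tested genes did. The other 47 intervals reached past 2-fold in at least 1 direction, so they do not bound the change to that size.

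Closest to the threshold were flp-6 and nlp-77, the highest members of the flp and nlp families. flp-6 (chromosome V, 9471975 to 9473796, ce11) had 116 and 110.2 CPM in the OP50 + MH-1 libraries, against 90.8 and 80.3 CPM in the OP50 libraries. Its log2 fold change was 0.40 ± 0.09 (SE), with a 95% interval of 0.20 to 0.60 and it missed the threshold with an adjusted p of 0.0788 by edgeR. nlp-77 (chromosome II, 7790560 to 7791375) had 325 and 291 CPM in the OP50 + MH-1 libraries, against 256 and 224 CPM in the OP50 libraries. Its log2 fold change was 0.36 ± 0.10, with an interval of 0.13 to 0.59 and an adjusted p of 0.145. For both genes the 2 groups did not overlap, and the intervals reach up to 1.52-fold for flp-6 and 1.503-fold for nlp-77. Some settings put them past the threshold. Over all 13 settings the adjusted p ran from 0.00130 to 0.318 for flp-6, which was called in 4, and from 0.00214 to 0.487 for nlp-77, which was called in 2. Leaving out OP50 replicate 1 called flp-6 (0.0395), while leaving out OP50 replicate 2 gave 0.318.

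The summed level of each family was higher in the OP50 + MH-1 libraries, and for flp and nlp this rested on those genes. The flp genes summed to 385 and 361 CPM in OP50 + MH-1, against 339 and 343 CPM in OP50. The nlp genes summed to 692 and 636 CPM in OP50 + MH-1, against 594 and 580.2 CPM in OP50. The ins genes summed to 30.8 and 29.8 CPM in OP50 + MH-1, against 22.8 and 26.8 CPM in OP50. No group overlapped the other in any of the 3 sums, but an exact permutation test with 2 libraries against 2 gives a two-sided p of 0.333 at best, which is what each sum gave. Without flp-6 the flp sum was 269 and 250.4 CPM in OP50 + MH-1 and 248 and 262 CPM in OP50, and the groups overlapped. Without nlp-77 the nlp sum was 367 and 344 CPM in OP50 + MH-1 and 338 and 356 CPM in OP50, again with overlap. Without its highest member, ins-26, the ins sum was 24.03 and 22.4 CPM in OP50 + MH-1 and 16.8 and 20.2 CPM in OP50, and the groups stayed apart. These sums without 1 gene were chosen after the values were seen.

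**Figure D3:**
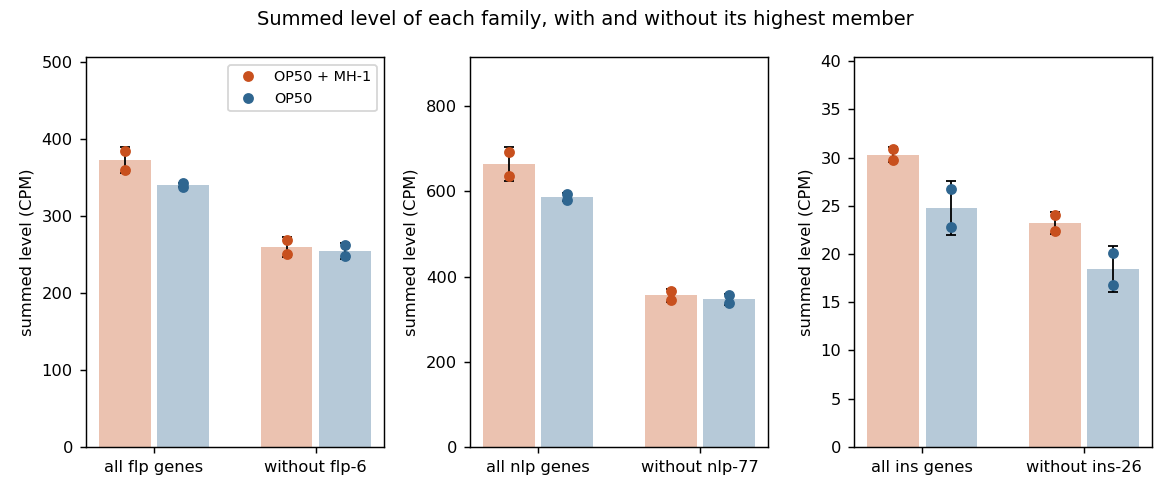
Summed CPM of all flp, nlp and ins genes, and of each family without its highest member, for OP50 + MH-1 (left in each pair) and OP50. Points are the 2 libraries, bars their mean and error bars the SD; the flp and nlp groups separate only while flp-6 and nlp-77 are in the sum.

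Among the other abundant flp genes, most were measured closely enough to bound a change. flp-14 had 65.5 and 61.6 CPM in OP50 + MH-1, against 64.5 and 66.7 CPM in OP50, a log2 fold change of -0.05 ± 0.08 with an interval of -0.24 to 0.15. flp-1, whose peptides act in locomotion, had 47.6 and 39.2 CPM in OP50 + MH-1, against 36.8 and 37.02 CPM in OP50. The groups did not overlap, but the change, 0.23 ± 0.12, did not pass (adjusted p = 0.445). flp-28, flp-22 and flp-3 had log2 fold changes of 0.12, -0.07 and -0.17. The flp genes with the largest positive values were low in counts. flp-25 had 2.97 and 2.08 CPM in OP50 + MH-1, against 1.85 and 0.736 CPM in OP50, and flp-21, which encodes a ligand of the foraging receptor NPR-1, had 1.24 and 1.43 CPM in OP50 + MH-1, against 0.897 and 0.566 CPM in OP50. Their intervals, -0.24 to 2.14 and -0.27 to 2.003, included both no change and a 4-fold rise. At the other end, flp-32 had 0.434 and 0.415 CPM in OP50 + MH-1, against 0.673 and 0.736 CPM in OP50 (-0.72 ± 0.56).

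Peptide genes grouped by known behaviour did not pass either. The peptides of the sleep-promoting neuron ALA are encoded among others by flp-13, flp-24, nlp-8 and nlp-14. flp-13 had 1.73 and 2.21 CPM in OP50 + MH-1, against 2.75 and 2.77 CPM in OP50 (log2 fold change -0.48 ± 0.33). nlp-8 had 3.72 and 3.51 CPM in OP50 + MH-1, against 4.37 and 4.64 CPM in OP50 (-0.32 ± 0.26). nlp-14 had 11.1 and 10.1 CPM in OP50 + MH-1, against 13.3 and 14.5 CPM in OP50 (-0.39 ± 0.16, adjusted p = 0.351 by edgeR). In these 3 of the 5 tested sleep genes both OP50 + MH-1 libraries lay below both OP50 libraries, as they did in 21.6% of all tested genes, and none of the 3 passed the test. In flp-24 (0.03 ± 0.30) and in flp-11, a peptide gene of the sleep neuron RIS (0.13 ± 0.27), the groups overlapped. nlp-22, known for quiescence of molting larvae, had no read in any library.

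Of the egg-laying peptides, nlp-7, which slows egg laying, had 2.60 and 2.86 CPM in OP50 + MH-1, against 3.48 and 4.64 CPM in OP50. Its groups did not overlap and its log2 fold change of -0.57 ± 0.30 did not pass. nlp-3, made in the egg-laying motor neuron HSN, and flp-10 and flp-17, whose peptides inhibit egg laying, overlapped between the groups at -0.05 ± 0.37, -0.04 ± 0.21 and 0.05 ± 0.20. Of the 10 genes listed for locomotion, feeding and arousal, 0 were called, with 6 positive and 4 negative values. In 5 of the 10 both OP50 + MH-1 libraries lay above both OP50 libraries, beside 24.4% of all tested genes. In 1 they lay below both, beside 21.6%. Among these 10 genes, nlp-12, a cholecystokinin-like peptide gene, had 5.45 and 3.28 CPM in OP50 + MH-1, against 2.64 and 2.83 CPM in OP50 (0.66 ± 0.34). flp-7, a tachykinin-like gene tied to fat loss in the intestine, had 2.17 and 1.43 CPM in OP50 + MH-1, against 2.75 and 2.09 CPM in OP50 (-0.44 ± 0.38). flp-18, which acts on foraging and fat, stood at -0.08 ± 0.15, and flp-20 of the touch neurons at -0.36 ± 0.36. The arousal gene flp-2, the gene nlp-9, and nlp-49, which encodes ligands of the receptor SEB-3, stood at 0.52 ± 0.39, 0.22 ± 0.20 and 0.20 ± 0.21.

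Among the remaining nlp genes, the gut peptide gene nlp-40 was the most precisely measured member. It had 154 and 156 CPM in OP50 + MH-1, against 144 and 152 CPM in OP50. Its log2 fold change of 0.06 ± 0.07 had an interval of -0.10 to 0.23, so a rise beyond 1.17-fold or a fall below 0.931 of the OP50 level lies outside it. nlp-51 was the lower gene with the most reads among the 5 most negative, at 4.65 and 4.84 CPM in OP50 + MH-1, against 6.34 and 8.604 CPM in OP50 (-0.65 ± 0.25, adjusted p = 0.309 by edgeR). nlp-70 had 0.557 and 0.784 CPM in OP50 + MH-1, against 1.29 and 1.25 CPM in OP50 (-0.90 ± 0.48). nlp-57 had 1.98 and 1.61 CPM in OP50 + MH-1, against 1.01 and 0.396 CPM in OP50 (1.34 ± 0.54, adjusted p = 0.333 by edgeR). In all 3 genes the groups did not overlap, as in 46.0% of all tested genes, and these genes were named for the size of their changes. nlp-36 (-0.12 ± 0.16) and nlp-20 (0.15 ± 0.27) had overlapping groups. Exons of nlp-36 share 26 bases, and those of nlp-20 share 2 bases, with a gene on the opposite strand.

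**Figure D4:**
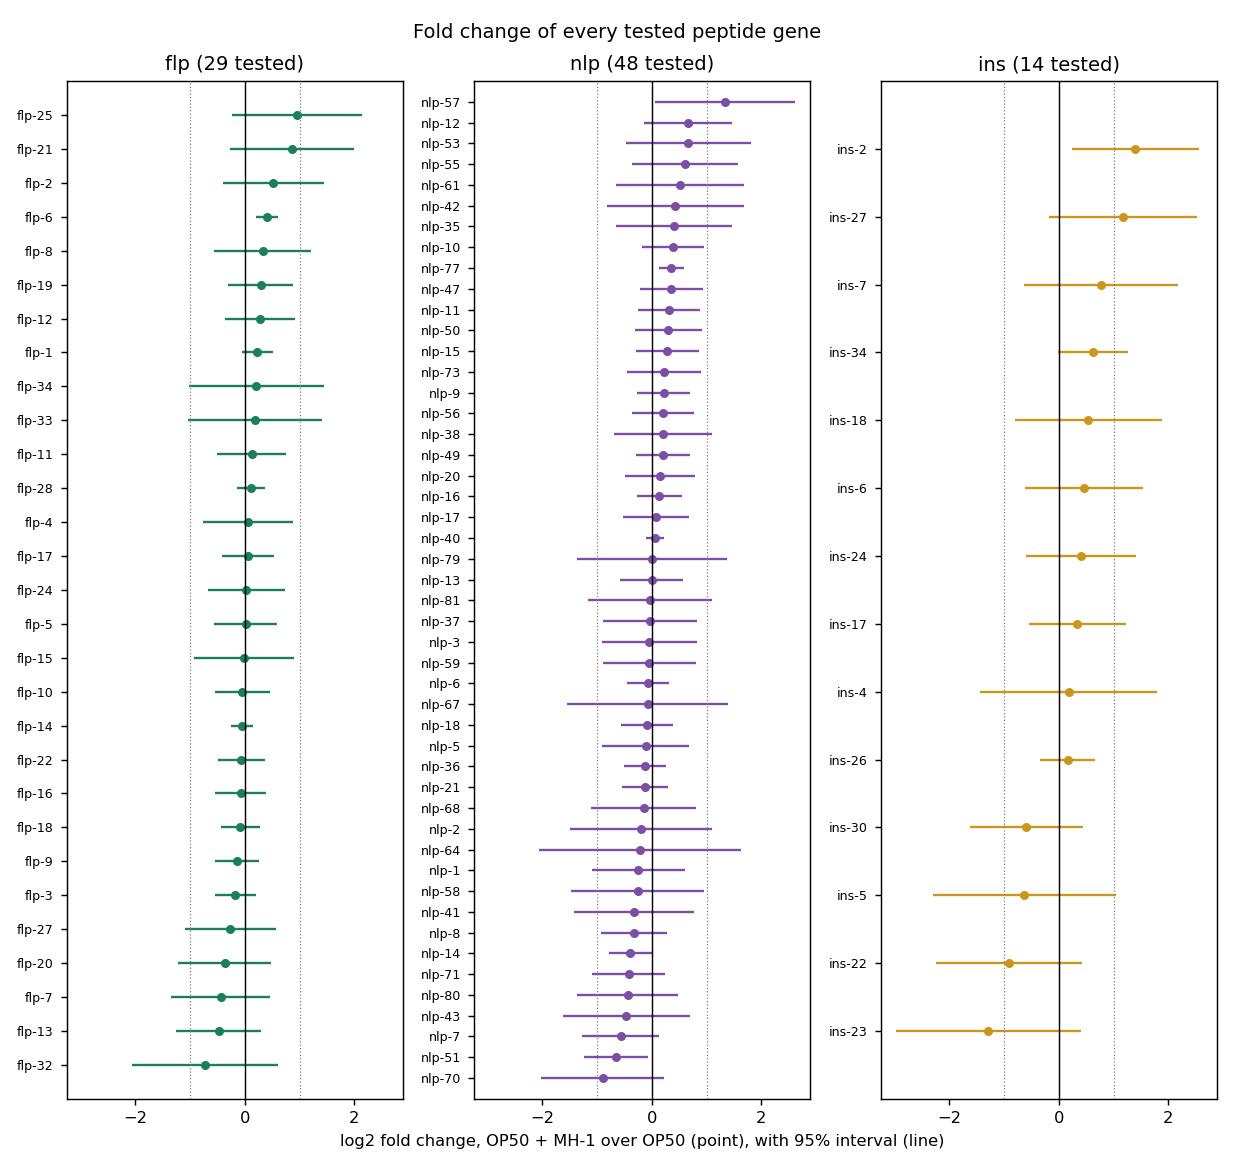
Log2 fold change of OP50 + MH-1 over OP50 for each of the 91 tested peptide genes (points) with its 95% interval (lines), by family and sorted, with dotted lines at a 2-fold change. Intervals are narrow for abundant genes such as nlp-40, flp-14, flp-6 and nlp-77, and 13 of the 14 ins intervals reach past 2-fold.

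The insulin-like genes were the least read family. Only 14 of 39 could be tested, and 0 were called; 10 had positive and 4 negative log2 fold changes, with a median of 0.37. The 2 groups did not overlap in 7 of the 14 with higher and 3 with lower levels in OP50 + MH-1, beside 24.4% higher and 21.6% lower among all tested genes. For these 14 genes the median gap between group means was 0.40 on the log2 scale. That was smaller than the median gap between the 2 OP50 + MH-1 libraries, 0.53, and larger than that between the 2 OP50 libraries, 0.27. In 5 of the 14 genes (35.7%) the gap between group means exceeded both replicate gaps, beside 32.97% of all tested genes. The 2 most abundant of the 14 were ins-26 and ins-34. ins-26 had 6.81 and 7.34 CPM in OP50 + MH-1, against 6.06 and 6.62 CPM in OP50 (0.16 ± 0.21). ins-34 had 4.95 and 5.12 CPM in OP50 + MH-1, against 2.86 and 3.68 CPM in OP50 (0.62 ± 0.27, adjusted p = 0.364 by edgeR), and was singled out after its values were seen.

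Among the 91 tested genes the largest change was that of ins-2 (chromosome II, 5988526 to 5989394). It had 28 and 37 reads in the OP50 + MH-1 libraries, against 8 and 15 reads in the OP50 libraries, which is 1.73 and 1.71 CPM against 0.449 and 0.849 CPM. The log2 fold change was 1.40 ± 0.49, with an interval of 0.24 to 2.55 and an adjusted p of 0.266 (edgeR). ins-27 had 1.86 and 0.877 CPM in OP50 + MH-1, against 0.505 and 0.679 CPM in OP50 (1.18 ± 0.57). The largest negative change among tested genes was that of ins-23, with 2 and 10 reads in OP50 + MH-1, against 15 and 12 reads in OP50 (-1.29 ± 0.71). Its neighbour ins-22 had 14 and 9 reads in OP50 + MH-1, against 25 and 17 reads in OP50 (-0.91 ± 0.57). At these counts the intervals of ins-27, ins-23 and ins-22 include no change.

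By known action on DAF-2, the agonist-type genes were near the limit of detection. ins-7, an intestinal and neuronal agonist, had 9 and 21 reads in OP50 + MH-1, against 7 and 9 reads in OP50 (0.77 ± 0.60). ins-6 had 17 and 29 reads in OP50 + MH-1, against 16 and 15 in OP50 (0.46 ± 0.45), and ins-4 had 6 and 23 reads in OP50 + MH-1, against 8 and 15 in OP50 (0.18 ± 0.68). ins-3, which was below the count filter, had 17 and 5 reads in OP50 + MH-1, against 3 and 1 in OP50. ins-32 and ins-35 had 1 read each in all libraries together, and ins-33 had 0 and 3 reads in OP50 + MH-1, against 0 and 5 in OP50. Of the antagonist-type genes, ins-17 stood at 0.34 ± 0.38 and ins-18 at 0.54 ± 0.56. ins-1 was too low to test, with 6 and 3 reads in OP50 + MH-1, against 10 and 7 in OP50. ins-11, an intestinal gene known from pathogen responses, had 0 and 1 reads in OP50 + MH-1, against 1 and 0 in OP50.

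Many insulin-like genes lie side by side in the genome, and in the 2 largest groups the point estimates of neighbours had mixed signs. Within 10000 bases of one another lay 32 of the 135 members, in 9 groups. The largest, on chromosome I from 14012369 to 14037803, holds 7 ins genes, of which ins-27, ins-24 and ins-26 had positive log2 fold changes (1.18, 0.41 and 0.16) and ins-30 a negative one (-0.59). The second, on chromosome II from 5988526 to 6011321, holds 6. There ins-2, ins-4 and ins-6 were positive (1.40, 0.18 and 0.46) and ins-5 was negative (-0.63). The untested ins-3 and ins-20 of this group lay higher in OP50 + MH-1 without overlap, at few reads. The intervals of ins-30 (-1.63 to 0.44) and ins-5 (-2.31 to 1.05) include no change. Of the tested genes in these 2 groups, only ins-2 had an interval that excluded no change, so a difference in direction between neighbours was not resolved. In the group of 3 on chromosome III from 10023804 to 10028600, ins-22 and ins-23 were negative and ins-21 had at most 2 reads in a library. On chromosome X the 3 neighbouring genes flp-28, flp-3 and flp-2 stood at 0.12, -0.17 and 0.52.

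**Figure D5:**
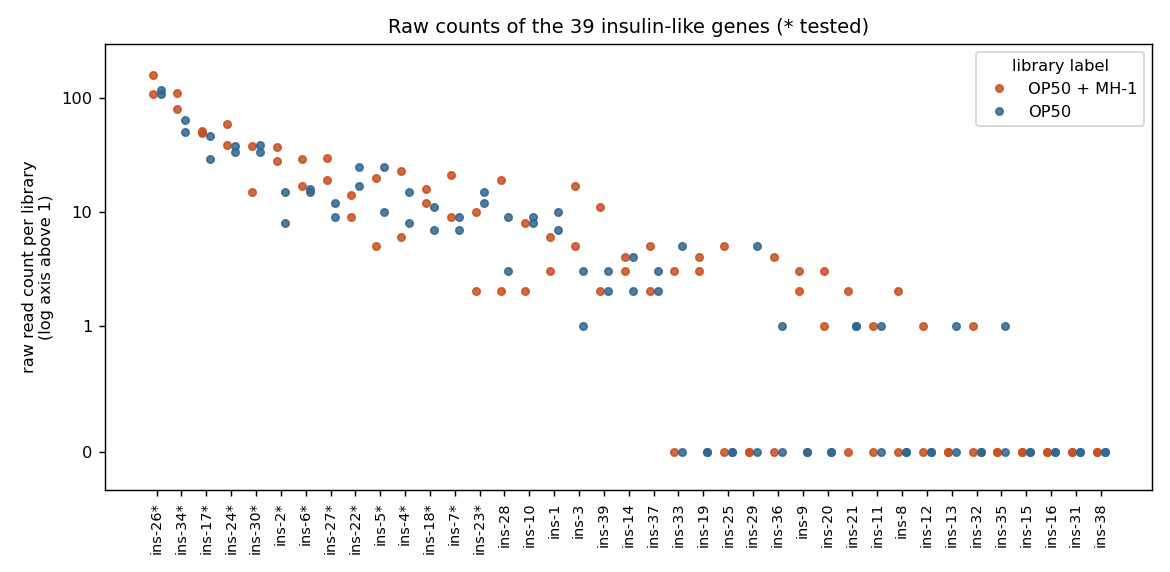
Raw read counts of each of the 39 insulin-like genes per library (vertical axis linear below 1 and logarithmic above), OP50 + MH-1 left of OP50, sorted by total; an asterisk marks the 14 genes tested. Only ins-26 and ins-34 reach 100 reads in a library, and ins-15, ins-16, ins-31 and ins-38 have none.

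The 44 members that were not tested were 2 flp, 17 nlp and 25 ins genes. They had at most 19 reads in any library, and 21 of them had no more than 3 in every library. No read was found in any library for ins-15, ins-16, ins-31, ins-38 and nlp-22. A floor of 3 reads corresponds to between 0.138 and 0.186 CPM, so these 5 genes are bounded by that level in each library, for counting error only. The untested genes with the most reads were flp-26, with 8 and 6 reads in OP50 + MH-1, against 9 and 19 in OP50, and nlp-69, with 6 and 11 reads in OP50 + MH-1, against 13 and 6 in OP50. nlp-4 had 0 and 6 reads in OP50 + MH-1, against 16 and 5 in OP50. ins-28 had 2 and 19 reads in OP50 + MH-1, against 9 and 3 in OP50. In CPM the groups overlapped in nlp-69 and ins-28, and lay lower in OP50 + MH-1 without overlap in flp-26 and nlp-4. That separation was slight. The closest libraries had 0.495 CPM in OP50 + MH-1 and 0.505 CPM in OP50 for flp-26, and 0.277 and 0.283 CPM for nlp-4. In raw reads the groups of nlp-4 overlapped. Of the 39 untested members with a read, 8 lay higher in OP50 + MH-1 without overlap and 5 lay lower, beside 15.2% higher and 8.49% lower among all untested genes with a read. Those higher included nlp-66, with 8 and 9 reads in OP50 + MH-1, against 2 and 5 in OP50, and nlp-39, with 6 and 6 reads in OP50 + MH-1, against 1 and 1 in OP50. ins-10 had 2 and 8 reads in OP50 + MH-1, against 8 and 9 in OP50, and shares 189 of its 388 exonic bases with vps-39 on the opposite strand, which had 2898 and 4002 reads in OP50 + MH-1, against 3294 and 3448 in OP50. The genes of this paragraph, other than those without reads, were named after their counts were seen.

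Among genes that make, release and sense these peptides 1 was called, where 2.15% of all tested genes were called. It was 1 of 13 tested dense core vesicle genes. Of the 11 processing genes, the 41 tested receptor genes and the 10 insulin signalling genes 0 were called. Of 13 dense core vesicle genes, hid-1, which acts in vesicle formation, rose, with 26.9 and 23.3 CPM in OP50 + MH-1, against 15.1 and 13.4 CPM in OP50. Its log2 fold change was 0.82 ± 0.14 (adjusted p = 0.0393, edgeR). The call was lost without OP50 + MH-1 replicate 1 (adjusted p = 0.154) or replicate 2 (0.0525), and with limma-voom (0.0604). The other 12 did not pass, and the list had a median of 0.02. Of 11 processing enzymes and their chaperone 0 were called, with 3 positive values and a median of -0.07. The convertase egl-3 had 72.8 and 75.1 CPM in OP50 + MH-1, against 76.1 and 78.7 CPM in OP50, and the carboxypeptidase egl-21 66.6 and 57.6 CPM in OP50 + MH-1, against 64.1 and 66.6 CPM in OP50. The carboxypeptidase cpd-2 stood at 0.94 ± 0.28 (adjusted p = 0.180 by edgeR) and the convertase aex-5 at -0.31 ± 0.18.

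Receptors were read far less than the peptides. The 95 listed peptide receptor genes had a median of 0.249 CPM per kb, against 2.64 for the 135 peptide genes. Of the 41 that could be tested 0 were called, with 17 positive and 24 negative values and a median of -0.08. The receptor genes with the smallest p were trhr-1, a receptor for the TRH-like peptide, at 1.16 ± 0.40, and frpr-11 at -1.34 ± 0.44, with adjusted p of 0.256 and 0.238 (edgeR). The insulin receptor gene daf-2 had 70.1 and 91.7 CPM in OP50 + MH-1, against 116 and 109 CPM in OP50, a log2 fold change of -0.47 ± 0.13 that did not pass (adjusted p = 0.141 by edgeR). Of the 10 insulin signalling genes, 9 had negative values, 0 were called and the median was -0.25, with the transcription factor daf-16 at -0.27 ± 0.09. In 8 of them both OP50 + MH-1 libraries lay below both OP50 libraries, beside 21.6% of all tested genes. Of 7 further peptide genes that carry other names, 6 were tested and 0 called. The insulin-like agonist gene daf-28 had 0.434 and 0.646 CPM in OP50 + MH-1, against 0.393 and 0.849 CPM in OP50, and the pigment dispersing factor gene pdf-1 had 10.9 and 10.6 CPM in OP50 + MH-1, against 11.4 and 11.8 CPM in OP50. capa-1 stood at -0.59 ± 0.49.

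No tested neuron marker was called between the foods, while several markers of embryos and of molting were higher with MH-1. The 17 neuron markers summed to 487 and 468 CPM in OP50 + MH-1, against 472 and 490.4 CPM in OP50, and 0 of the 15 tested were called (median log2 fold change 0.14). The 9 embryo markers summed to 231 and 197 CPM in OP50 + MH-1, against 88.0 and 64.9 CPM in OP50, and 3 of 9 were called, all higher. The 8 molting markers summed to 357 and 266 CPM in OP50 + MH-1, against 103 and 69.7 CPM in OP50, and 4 of 8 were called, all higher, beside 1.82% of all tested genes. None of these 34 markers was at 0 reads in all libraries. The part of embryo or molting RNA in the values of ins-2, nlp-57, flp-6 or nlp-77 was not tested. The 8 intestine markers summed to 30244 and 50521 CPM in OP50 + MH-1, against 44081 and 46843 CPM in OP50, with 0 of 8 called. For muscle 1 of 6 and for epidermis 1 of 5 were called, both higher. The 12 germline markers summed to 9080 and 9292 CPM in OP50 + MH-1, against 10763 and 10286 CPM in OP50. Of these 0 were called, all 12 had negative log2 fold changes (median -0.14), and in 11 both OP50 + MH-1 libraries lay below both OP50 libraries, beside 21.6% of all tested genes. The part of germline RNA in the values of daf-2 and the other insulin signalling genes was not tested. Of the sperm markers 0 of the 1 tested were called.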

How the data were processed

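Poly(A) RNA of whole worms was sequenced with a stranded kit, per the labels' protocols, in 2 libraries per food. The deposited values are raw read counts per gene. Per the submitters' processing notes, the authors used featureCounts 2.0.1, STAR 2.7.10a, cutadapt 3.7, Trimmomatic 0.39 and Trim Galore 0.6.7, with ce11 (WBcel235) as the build. For strand and multi-mapping reads the counting rule is not stated here. Near-identical paralogs and the 13 members whose exons overlap another gene (9 on the opposite strand) are uncertain. The exonic length of a gene is the other deposited column used. Coordinates are those of the deposited tables. Chromosome, start and end were the same in Ensembl release 115 for 29 of the 135 members.

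Samples were grouped by title. The fit used R 4.3.3 and edgeR 4.0.16, with the filterByExpr low-count filter, TMM scaling and the quasi-likelihood test. The group was the only term, over all 12640 genes kept. The filter asks for the CPM equivalent of at least 10 counts in at least 2 libraries, and 15 counts in total. A gene can pass through 1 group alone, as ins-23 and flp-32 did through OP50 and ins-7 through OP50 + MH-1. CPM are scaled to TMM-adjusted totals, and an interval is the log2 fold change plus or minus its standard error times the t quantile of the fit. Steps were checked on simulated counts. The genes named are the members called, the 5 largest positive and 5 largest negative changes, and the 10 highest levels per length. Also named are listed members with known roles, and of each pathway list the called genes or else the 2 with the smallest p. Other pathway genes, such as egl-3 and egl-21, and further genes of the neighbour groups were named outside these rules. Members and lists were chosen with earlier results of these data known. Sequences are not used here. Alternatives used DESeq2 1.42.0 and limma 3.58.1; Python 3.11.15 and matplotlib 3.10.9 served for the sums and figures.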

Additional observations from a re-analysis of the deposited data

How the results depend on the processing

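The finding of 0 called peptide genes held with DESeq2 size factors, a stricter count filter, DESeq2, limma-voom and robust dispersion. It became 1 higher gene (flp-6) with total counts as the scaling, 2 (flp-6 and nlp-77) with no count filter, and 2 with a replicate block, adjusted p 0.0214 and 0.0196. With 1 library left out it was 0 to 1, the 1 being flp-6 without OP50 replicate 1. Such a fit leaves 1 library alone in its group, which is assumed to vary like the other group. No setting called a lower peptide gene. The replicate numbers are not stated to mark a shared batch. Differences between replicates 1 and 2 correlated between the groups at 0.23 over 12640 genes. Over all genes, where 230 were called higher and 42 lower, the counts were 815 and 297 with no filter, 365 and 90 with DESeq2, 135 and 27 with limma-voom, and 450 and 109 with the replicate block. Leaving out replicate 1 of OP50 + MH-1 gave 99 higher and 20 lower, and leaving out its replicate 2 gave 223 higher and 95 lower. Leaving out replicate 1 of OP50 gave 395 higher and 93 lower, and its replicate 2 gave 287 higher and 80 lower. The median over the members ran from -0.046 without OP50 + MH-1 replicate 1 to 0.16 without OP50 + MH-1 replicate 2. The ratio of OP50 + MH-1 to OP50 was 1.09 for the flp sum, 1.13 for the nlp sum and 1.12 for all 135. These moved to 1.02, 1.02 and 1.03 without flp-6, without nlp-77 and without both. For the ins sum the ratio was 1.22, and 1.26 without ins-26. Of 41 named members tested, 8 changed sign when a library was left out: flp-22 (-0.19 to 0.058), nlp-20 (-0.17 to 0.55), flp-11 (-0.056 to 0.30), flp-24 (-0.31 to 0.48), nlp-3 (-0.49 to 0.32), flp-10 (-0.22 to 0.14), flp-17 (-0.091 to 0.21) and ins-4 (-0.79 to 0.71). The cause was not tested. Depth limits the ins genes most.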
